A study of Mus musculus with 32 samples.

Results

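H3K27ac ChIP-seq after 30 min of 4-hydroxytamoxifen (4-OHT) was compared with H3K27ac ChIP-seq before induction (0 h), with 2 libraries per time. The 4 peak lists were merged into 30752 regions. A region was kept if it was called in all 4 lists (16795 regions), gained if it was called in both 30 min lists and neither 0 h list (1061 regions), and lost if the reverse held (305 regions). The other 12591 regions had mixed patterns, and 6179 of these were called in the first 30 min replicate alone. All 8 H3K27ac lists of the series merged into 39309 regions, and these 4 libraries are 4 of its 32 samples.

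The mouse pre-B cell line B3 was used, and its cells had been transduced to express Ikaros-ERt2, an HA-tagged fusion of Ikaros (IKZF1) with the ERt2 domain. All groups carried this fusion. The 0 h cells received no 4-OHT, and the others received 500 nM 4-OHT for 30 min, 1 h or 2 h. The transgene was delivered by retrovirus and adds to the IKZF1 of the cells, which the HA antibody does not see. The labels do not say whether replicates came from separate cultures, so p-values measure only the spread between these libraries. The peak lists carry no calibration between libraries, so every change is relative to the rest of the library.

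IKZF1 is a zinc-finger transcription factor that drives pre-B cells out of the cell cycle and towards differentiation, and its loss is frequent in B-cell leukaemia. ERt2 holds a fusion protein in the cytoplasm until 4-OHT lets it enter the nucleus. IKZF1 binds short GGGAA words and associates with the NuRD complex, in which CHD4 remodels nucleosomes and HDAC1 and HDAC2 remove acetyl groups. Acetylation of histone H3 at lysine 27 (H3K27ac) is laid down by p300 and CBP and marks active promoters and enhancers.

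The following windows are 101 bases of GRCm38 (mm10), plus strand, centred on the HA-Ikaros 30 min summit inside the 8 H3K27ac regions that fell most among those with an HA-Ikaros peak in both 30 min lists. They are shown because they hold the HA-Ikaros summits under these falls, whose values are given further on. Capitals mark GGGAA, or TTCCC where the word is on the other strand.
Asic4, chr1:75447670-75447770: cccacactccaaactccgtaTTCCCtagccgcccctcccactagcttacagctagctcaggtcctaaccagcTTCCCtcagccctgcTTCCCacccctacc
D10Jhu81e, chr10:78129653-78129753: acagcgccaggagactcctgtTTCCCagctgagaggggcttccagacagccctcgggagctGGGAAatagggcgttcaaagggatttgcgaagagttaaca
Tmem26, chr10:68795626-68795726: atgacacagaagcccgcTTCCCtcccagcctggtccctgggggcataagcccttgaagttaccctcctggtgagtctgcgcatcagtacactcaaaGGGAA
B4galnt4, chr7:141047227-141047327: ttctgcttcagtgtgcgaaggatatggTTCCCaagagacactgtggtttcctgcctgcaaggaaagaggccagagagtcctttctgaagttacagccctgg
Itga5, chr15:103382026-103382126: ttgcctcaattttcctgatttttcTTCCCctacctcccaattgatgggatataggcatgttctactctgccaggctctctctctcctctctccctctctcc
Gas6, chr8:13490738-13490838: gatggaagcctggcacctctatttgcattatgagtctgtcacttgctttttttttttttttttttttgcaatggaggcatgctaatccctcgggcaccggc
Tlr4, chr4:67232910-67233010: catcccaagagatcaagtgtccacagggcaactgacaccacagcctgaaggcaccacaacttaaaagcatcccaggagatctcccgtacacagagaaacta
Bcl2l14, chr6:134366790-134366890: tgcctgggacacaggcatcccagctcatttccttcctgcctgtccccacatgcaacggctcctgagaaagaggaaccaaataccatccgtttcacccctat

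The window near Asic4 held 3 words, those near D10Jhu81e and Tmem26 held 2, those near B4galnt4 and Itga5 held 1, and those near Gas6, Tlr4 and Bcl2l14 held none, so 5 of the 8 windows held the word. The word stood in 40.5% of windows at the 398 falling regions with an HA-Ikaros peak in both 30 min lists, in 40.6% at the 69 rising ones and in 44.3% at the other 2905 such regions. Windows at the centres of 9457 kept regions with no HA-Ikaros 30 min peak held it in 27% of cases, and those of the 389 falling regions among them in 33.7%. These shares are a description, and a match of 5 letters is not a binding site.

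Peaks were more numerous in the longer 30 min list than in either 0 h list. The 0 h lists held 25095 and 21468 peaks and the 30 min lists 29408 and 23214. The first replicate had the longer list at both times. Depth was recovered from the lists themselves, since the fold and the p of a peak are both computed from the fragments over its summit and the local background. Mean coverage was 4.25 and 4.30 fragments per base at 0 h and 3.75 and 3.96 at 30 min. After the scaling towards the input that the peak caller applied, it was 3.42 and 2.93 against 3.75 and 3.28, and the 4 lists ordered by this scaled coverage were also ordered by length. The peaks covered 38.9 Mb ± 1.83 (SD, n = 2) at 0 h and 45.3 Mb ± 5.54 at 30 min (exact two-sided permutation p = 0.33, the smallest that 2 against 2 allows). The share of peaks at promoters, taken as within 1 kb of a transcription start site, was 49.6% ± 2.59 at 0 h and 45.4% ± 4.55 at 30 min (exact permutation p = 0.667).

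Pre-B marker genes carried H3K27ac at their promoters in all 4 libraries. All 11 listed genes were marked in 3 libraries and 10 in the second 0 h replicate, which lacked a peak at Rag1. Of 5 fibroblast markers, 0 were marked. Of 6 myeloid markers, Lyz2 alone was marked, in the first 0 h library. Cd3d, Lck and Zap70 of 7 T cell markers and Klf1 and Hbb-bs of 5 erythroid markers were marked in all 4 libraries. Within each list the number of marked genes differed by at most 1 between libraries.

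Gained and lost regions were weak, short and mostly distal, as were the regions that divided the lists by replicate number. Gained regions made up 3.45% of all merged regions and lost regions 0.992%. Dividing the same 4 lists by replicate number in place of time gave 917 regions called in both first replicates alone and 62 called in both second replicates alone. The count of gained regions was therefore of the same size as the count that set the first replicates apart. Without the first 0 h library the gained count was 2045, without the first 30 min library 2820 and without the second 30 min library 7649. The lost count was 805 without the first 0 h library, 1668 without the second and 1152 without the first 30 min library. With the 4 lists shortened to equal length, 638 regions were gained and 486 were lost.

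**Figure D1:**
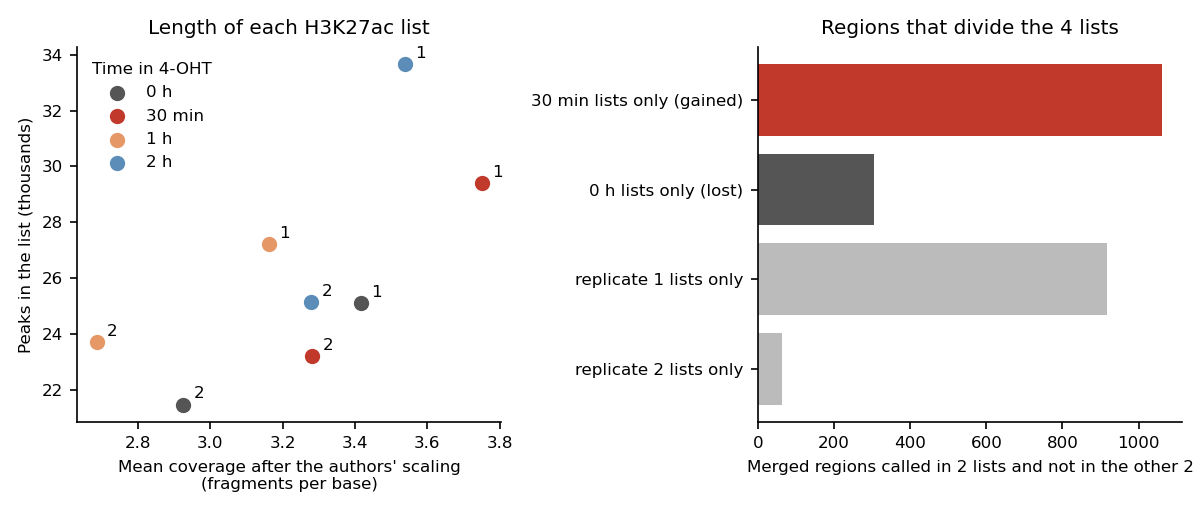
The left panel plots the number of peaks in each of the 8 H3K27ac lists against its mean coverage after scaling (fragments per base), with points coloured by time in 4-OHT and numbered by replicate. The right panel shows as bars the number of merged regions called in 2 of the 4 lists and not in the other 2, with 1061 gained, 305 lost, 917 in both first replicates and 62 in both second replicates.

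Gained regions had a median of 18 fragments over the summit in each 30 min library, and about 80% of them lay between 14 and 25 in the first and 15 and 24 in the second. Their median fold was 3.71 and 3.52 over the local background. Their median length was 653 bp, against 2287 bp for kept regions, and 19.98% lay at promoters against 60.2% of kept regions. Lost regions had a median of 22 fragments in each 0 h library, a median length of 590 bp and a promoter share of 16.4%. The 917 regions called in both first replicates alone had medians of 20 and 17 fragments, a median length of 536 bp and a promoter share of 22.8%, so these traits were not particular to the change of time. The lowest fragment count of any listed peak was 14 and 15 in the 0 h libraries and 11 and 13 in the 30 min libraries. The medians of gained and lost regions thus lay a few fragments above the lowest counts that their lists hold.

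HA-Ikaros and CHD4 peaks were few at gained regions, as at the regions that divided the replicates. A peak in both HA-Ikaros 30 min lists lay at 7 gained regions (0.66%), at 4 lost regions (1.31%) and at 20.1% of kept regions. The share was 1.20% at the 917 regions of the first replicates and 11.3% of all merged regions. A peak in both HA-Ikaros 0 h lists lay at 9 gained regions (0.848%), 37 lost regions (12.1%), 4.03% of the 917 and 28.0% of kept regions. CHD4 was called in both 30 min lists at 5 gained regions, 0 lost regions and 10.7% of kept regions. Kept regions are longer and stronger, so these shares are set side by side without a test.

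A larger share of gained than of lost regions was called again at the later times. Of the gained regions 28.0% were called in both 1 h lists and 42.8% in both 2 h lists, while 33.2% and 23.8% were in neither. Of the lost regions 7.87% were called in both 1 h lists and 9.18% in both 2 h lists, while 73.4% and 75.1% were in neither. These later lists were not used to choose the regions. The 2 h lists are themselves long, and of the 917 regions called in both first replicates alone 20.1% were in both 2 h lists.

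**Figure D2:**
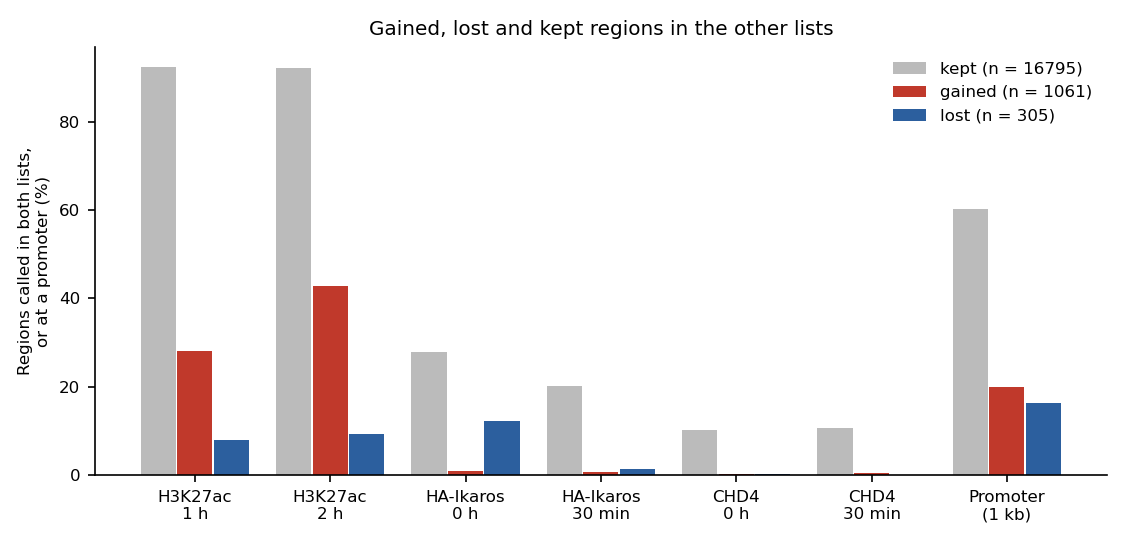
The bars give the percentage of kept (grey), gained (red) and lost (blue) regions called in both lists of each other target and time, and at promoters within 1 kb. Gained regions reached 42.8% in the 2 h H3K27ac lists and 0.66% in the HA-Ikaros 30 min lists.

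Among gained regions with the highest rank of fold within the lists, the one 9.3 kb from Psme4, an activator subunit of the proteasome, had 41 and 46 fragments at 30 min. It was called in all 4 later lists with 55 to 76 fragments. The gained region near Slc30a5, a zinc transporter, had 30 and 44 fragments, and that at the promoter of Gpt, alanine aminotransferase, had 30 and 32. The region near Klrb1c, an NK cell receptor gene, had 36 and 27 fragments and was in none of the later lists. The others of these 8 lay near Jchain, the joining chain of secreted antibodies, Bhlhe41, a transcriptional repressor, Kctd9 and Isoc2b, with 28 to 35 fragments. Of the 8 regions, 1 was at a promoter.

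The lost regions of highest rank lay near Mvb12b, an ESCRT subunit (38 and 45 fragments at 0 h), Ceacam10, an adhesion molecule gene (42 and 43), and Tmem154 (41 and 28). The remaining 5 lay near Hpcal1, Tmco5, Jam2, a junctional adhesion molecule, Gm5426 and Cdyl, a chromodomain corepressor, with 27 to 37 fragments. The region near Cdyl was called again in all 4 later lists with 19 to 23 fragments. The regions near Mvb12b, Ceacam10, Tmem154 and Hpcal1 were called in none of them.

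Within the kept regions, the change was tested with limma in log2 of the fold over background, and no region passed an adjusted p of 0.05. The smallest adjusted p was 0.164, with 1118 of 16795 regions lower at an unadjusted p under 0.05 (6.66%) and 654 higher (3.89%), and 0 called in either direction (0% of regions). The fold carries the error of the local background as well as that of the summit. The SD of the difference between replicates was 0.43 at 0 h and 0.46 at 30 min on the log2 fold scale. On the scale of log2 fragments over the summit it was 0.25 and 0.28. The same limma test on log2 fragments called 1035 of 16792 regions lower at 30 min (6.16%) and 333 higher (1.98%). All calls that follow are from this fit on fragments, which is the alternative and not the main test, and each is a change relative to the median kept region.

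The fragment calls depended on the libraries and on the scaling. Without the first 0 h library 509 regions were lower and 128 higher, and without the second 549 and 134. These fits set 1 library against 2, so the spread comes from the 30 min pair alone and the lone library is assumed to vary like it. Scaling each library by its mean coverage in place of its median kept region left 186 lower and 9 higher. That scaling changed the calls and hardly the sizes, since it shifts every log2 change by the same amount, with a median over kept regions of 0.04 in place of 0.02 and a change near Plxnb1 of −2.16 in place of −2.17. The changes of same-numbered pairs correlated across regions with r = 0.51 in log2 fragments and 0.23 in log2 fold. Regions are not replicates, and each pair change holds counting error.

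Falls were larger than rises. The 1035 lower regions had median fragments of 96 and 87 at 0 h and 53 and 46 at 30 min, with a median log2 change of −0.72. The 333 higher regions had medians of 63 and 59 at 0 h and 92 and 76 at 30 min, with a median log2 change of 0.59. Among all kept regions the medians were 68 and 63 at 0 h and 66 and 54 at 30 min. The change exceeded 2-fold at 156 lower regions and at 3 higher regions.

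**Figure D3:**
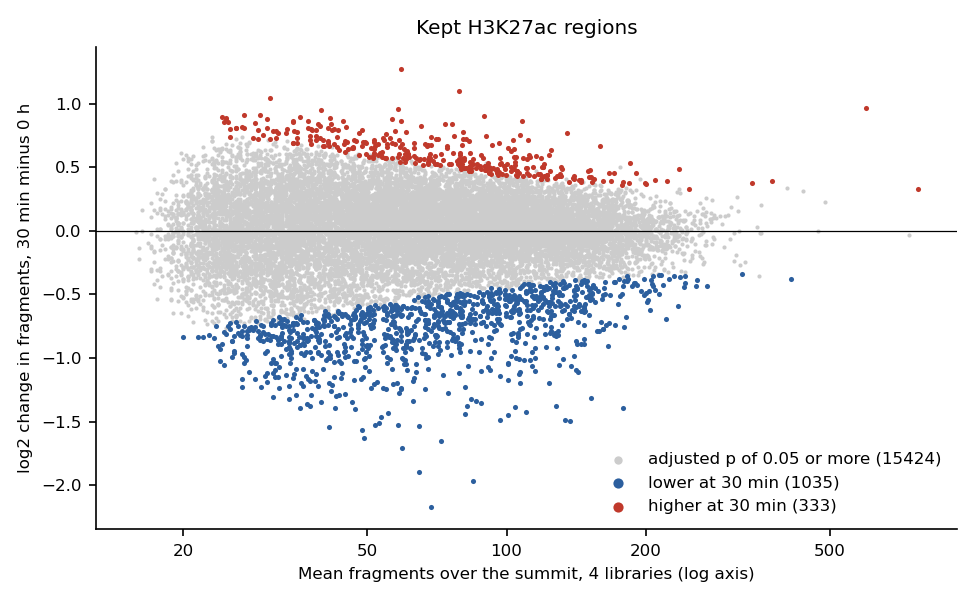
Each point is a kept region, placed by its mean fragments over the summit in the 4 libraries (log axis) and by its log2 change from 0 h to 30 min, with regions lower at an adjusted p under 0.05 in blue (1035) and higher ones in red (333). Falls reach −2.17 and rises reach 1.27.

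The deepest fall lay 9.7 kb from Plxnb1, a semaphorin receptor gene. Its summit held 128 and 101 fragments at 0 h and 22 and 24 at 30 min. Both 30 min libraries lay far below both 0 h libraries, and the log2 change was −2.17 ± 0.19 (SE; limma adjusted p = 5.79e-10, and from 1.5e-26 to 2.92e-09 under the alternatives). In the fold this region went from 20.8 and 17.8 to 4.84 and 4.87 (limma adjusted p = 0.164). The region 52.6 kb from Tmem26, a membrane protein gene, went from 149 and 126 fragments to 33 and 31. The region 34.4 kb from Cdh17, a cadherin gene, went from 117 and 107 to 33 and 32, and the one 21.2 kb from Rgl1, an exchange factor for Ral, from 105 and 100 to 35 and 18. The groups did not overlap at any of them, but these regions were chosen for large falls in the same libraries. The other 4 of the 8 deepest falls lay near Rpl3, a ribosomal protein gene, Asic4, Sox9, a transcription factor gene 280 kb away, and Tgfb2, a growth factor gene 239 kb away, with 54 to 94 fragments at 0 h and 19 to 27 at 30 min. All 8 were distal, and 6 had an HA-Ikaros peak in both 0 h lists, the exceptions being those near Rgl1 and Cdh17 with 1 list. Of all kept regions 39.8% were distal and 28.0% had HA-Ikaros in both 0 h lists. At 30 min the region near Asic4 had HA-Ikaros in both lists, those near Plxnb1 and Cdh17 in neither, and the other 5 in 1.

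The largest rise lay at the promoter of Ncoa4, the receptor that delivers ferritin to autophagy. It went from 50 and 26 fragments at 0 h to 93 and 68 at 30 min (log2 change 1.27 ± 0.21, limma adjusted p = 5.43e-05, and from 3.46e-09 to 0.00648 under the alternatives). With the peak of most fragments in place of that of highest fold the change was 0.83. The first 0 h library lay nearer to the second 30 min library than to its own replicate. The regions near Akap5 and Akap6, anchors of protein kinase A, went from 24 and 34 to 49 and 52 and from 25 and 18 to 38 and 42. Other regions among the largest rises lay near 0610010F05Rik, Map3k12, a kinase gene, L3mbtl3, a methyl-lysine reader gene, and Gm21060. The region near Gm21060 had 395 and 468 fragments at 0 h and 777 and 759 at 30 min, but its fold was 19.6 and 19.5 at 0 h and 15.5 and 10.8 at 30 min, so the 2 scales moved in opposite directions there. The 5 rises near Akap5, Akap6, Gm21060, L3mbtl3 and Map3k12 each missed the threshold under 1 alternative.

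**Figure D4:**
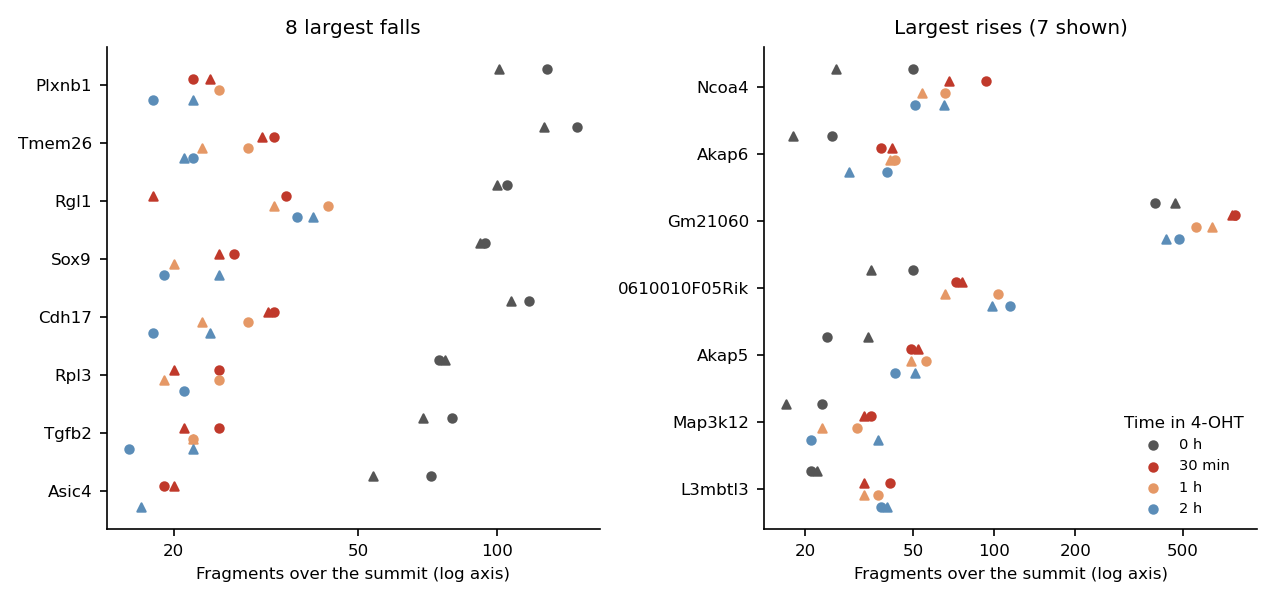
Fragments over the summit (log axis) in each H3K27ac library at the 8 largest falls and at 7 of the largest rises, coloured by time in 4-OHT, with circles for replicate 1 and triangles for replicate 2, and no point where a library has no peak. At all 8 falls both 0 h points lie to the right of both 30 min points, and at all 7 rises they lie to the left. The regions were chosen for these changes in the same libraries.

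By the fold, the 8 falls of smallest p lay near Mrgpra1, Plxnb1, Rnf220, Ccm2l, Cdh17, Gas6, Nedd9 and Plcl1, and each missed the threshold (limma adjusted p = 0.164). Near Rnf220, a ubiquitin ligase gene, the fold was 41.2 and 37.8 at 0 h and 15.7 and 9.72 at 30 min. Near Gas6, a ligand of the TAM receptors, it was 38.4 and 34.9 at 0 h and 14.2 and 11.3 at 30 min. All 8 were also lower in fragments, with log2 changes from −2.17 to −1.01. Among the rises of smallest p were regions near Ppm1a, Smu1, Treh, Poli, Triobp, Plcl2 and Rnf157, with adjusted p from 0.262 to 0.266 in limma on the fold, and all 7 were higher in fragments.

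Kept regions away from promoters were called lower in a larger share than promoters. Of 6681 distal regions 708 were lower (10.6%) and 122 higher (1.83%). Of 10111 promoter regions 327 were lower (3.23%) and 211 higher (2.09%). The share lower was above the 6.16% of all kept regions at distal regions and below it at promoters, while the shares higher lay near 1.98% in both. The median log2 change was −0.06 at distal regions and 0.07 at promoters. Without the first 0 h library 5.19% of distal and 1.44% of promoter regions were lower, without the second 5.22% and 1.53%, and with mean-coverage scaling 2.13% and 0.435%. No test over regions was made.

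The share of lower regions was larger where HA-Ikaros was called. Where the 0 h lists agreed, it was not larger with HA-Ikaros in both 30 min lists than in neither, as given below. With an HA-Ikaros 30 min peak in both lists 398 of 3372 kept regions were lower (11.8%), with a peak in 1 list 6.26% and with none 4.11%. The shares higher were 2.05%, 2.12% and 1.90%. With HA-Ikaros in both 0 h lists 15.2% of 4697 regions were lower, with 1 list 6.40% and with none 1.52%. The HA-Ikaros 0 h lists, made before 4-OHT, held 7822 and 9527 peaks and the 30 min lists 9181 and 5373. Thus the 0 h lists separated lower regions from the rest by more than the 30 min lists did, a difference that was not tested and that the unequal list lengths bear on. Without the first 0 h H3K27ac library the share lower was 5.44% against 1.98% by the 30 min lists and 8.03% against 0.625% by the 0 h lists, and without the second 6.71% against 1.84% and 8.57% against 0.548%. With mean-coverage scaling it was 1.16% against 1.04% and 2.87% against 0.302%.

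Both features together gave the widest range. Of 1849 distal regions with HA-Ikaros in both 0 h lists 24.9% were lower, and of 5554 promoters with HA-Ikaros in neither 0.576% were. At 715 regions with HA-Ikaros in both 0 h lists and neither 30 min list 22.9% were lower. At 357 regions with the reverse pattern 1.12% were lower and 2.52% higher. At 2474 regions with HA-Ikaros in all 4 lists 14.8% were lower, and at 7541 regions with it in none of them 1.60%. Among regions in both 0 h lists the share lower was thus 14.8% with HA-Ikaros in both 30 min lists and 22.9% with neither. Among regions in neither 0 h list it was 1.12% and 1.60%, and these differences were not tested. Of the 1035 lower regions 713 (68.9%) had HA-Ikaros in both 0 h lists and 398 (38.5%) in both 30 min lists. At least 1 of the 4 lists held it at 914 (88.3%). The same shares were 28.0%, 20.1% and 55.1% over all kept regions, and 23.4%, 20.7% and 52.9% over the higher regions.

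**Figure D5:**
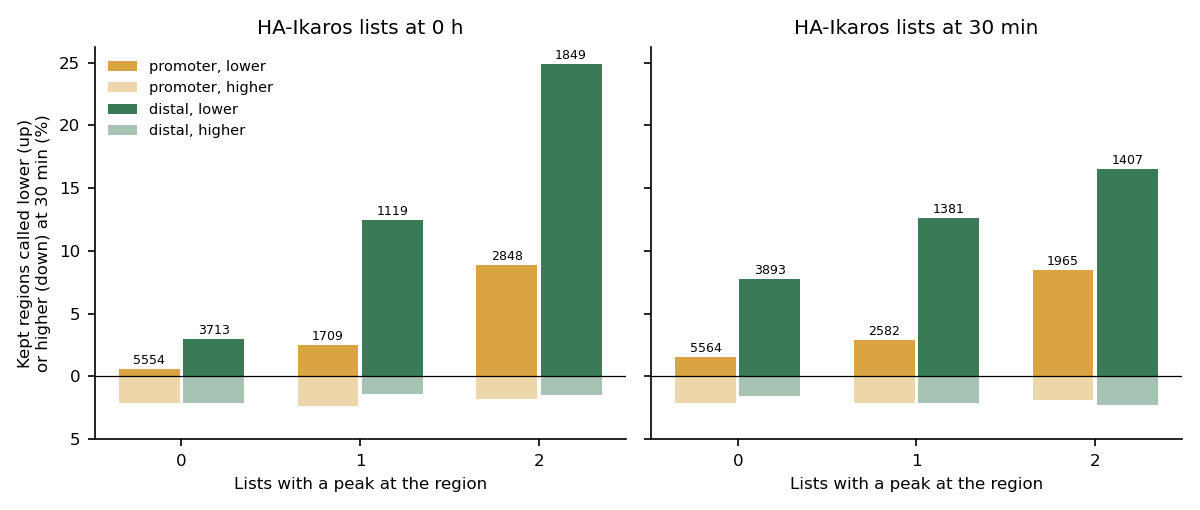
Percentage of kept promoter (ochre) and distal (green) regions called lower (bars up) or higher (bars down) in fragments at 30 min, by the number of HA-Ikaros lists with a peak there at 0 h (left) and 30 min (right), with the number of regions above each bar. Lower calls range from 0.576% to 24.9% on the left.

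Regions with HA-Ikaros in both 30 min lists were stronger, with a median of 104 fragments against 48.5 for regions with it in neither. Within 10 bins of mean fragments the share lower was larger at HA-Ikaros 30 min regions in 7 bins, and averaged 9.82% against 3.80%. The median change was lower at HA-Ikaros regions in all 10 bins. The 3 exceptions in the share were the 3 weakest bins. At regions with HA-Ikaros in neither 30 min list, some of which had it at 0 h, the share lower was at most 6.77%. It was 0.504% in the strongest bin. Under the 14 alternatives of the fragment fit the share lower was larger at HA-Ikaros regions each time, but scaling by mean coverage narrowed the difference from 7.69 to 0.12 percentage points. This concerns the calls, as the log2 changes shifted alike in both groups. These comparisons by the 30 min lists did not hold the 0 h lists fixed.

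Change of rank depends on the lengths of the lists and on where a region starts. The percentile rank of the fold within its list was on average 5.93 points higher over the kept regions in the first 30 min than in the first 0 h library, and 3.004 points higher between the second replicates. The longer lists at 30 min hold more weak peaks below the kept regions. At regions with HA-Ikaros in both 30 min lists the mean difference was 2.05 and 1.21 points, and at regions with none 7.74 and 4.10. HA-Ikaros regions minus the others gave −5.69 and −2.90 points in the 2 pairs, with a mean of −4.29. HA-Ikaros regions also started from higher ranks, with means of 78.6 and 74.5 at 0 h against 56.0 and 49.9. With ranks taken within the kept regions alone, which removes the list lengths, the difference was −2.64, and within 10 bins of mean rank it was −1.58. Without the first 30 min library it was −1.89 and without the second −6.70, and no test of this difference was made.

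CHD4 lists divided the kept regions in a like manner. With CHD4 in both 30 min lists 12.6% of 1795 regions were lower and 2.73% higher, and with CHD4 in neither 4.75% and 1.71%. With CHD4 in both 0 h lists 20.2% of 1721 regions were lower, and with none 3.06%. These shares were 10.6% and 1.30% without the first 0 h library, 12.2% and 1.27% without the second, and 3.54% and 0.657% with mean-coverage scaling. CHD4 regions were stronger, with a median of 120 fragments at 30 min CHD4 regions against 54 at the others. Scaling by mean coverage left 1.00% lower with CHD4 in both 30 min lists and 1.08% with none. The part of signal strength in this was not tested.

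Among the regions with HA-Ikaros in both 30 min lists, the deepest falls lay near Asic4, an acid-sensing channel gene, D10Jhu81e, Gas6, Tmem26 (69.5 kb away), Tlr4 (402 kb away), B4galnt4, Itga5 and Bcl2l14. Near Gas6 the summit held 210 and 204 fragments at 0 h and 68 and 66 at 30 min. Near Tmem26 it held 216 and 188 and then 69 and 62. In the region 5.9 kb from the start site of Itga5, the alpha subunit of the fibronectin receptor, it held 288 and 242 and then 97 and 87. The log2 change there was −1.39 ± 0.12 (limma adjusted p = 5.79e-10). The replicates lay close together and the times apart at each, but these regions too were chosen for large falls in the same libraries. All 8 had HA-Ikaros in both 0 h lists as well, as did 2474 of the 3372 kept regions with both 30 min lists. Their log2 changes ran from −1.55 to −1.38. Near D10Jhu81e the change was −0.64 when peaks up to 1000 bp apart were stitched. Their windows are those printed above.

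Fast Repressed genes named in the text of the study held the largest share of falls among the 9 gene lists, although among regions with 1 peak in each library the adhesion list held more (24% of 25 against 17.6% of 17). The study grouped such genes by nascent RNA, but it names several of them because H3K27ac at their enhancers fell in this series, from the same 0 h libraries. Their count is therefore partly set by that choice and is not independent evidence of its direction. Within 20 kb of their start sites lay 40 kept regions, of which 15 were lower (37.5%, against 6.16% of all kept regions) and 0 higher. The median log2 change was −0.34, against 0.02 for all kept regions. HA-Ikaros was called in both 30 min lists at 19 of the 40. Of the 19 genes 17 had a region and 11 had a lower one. Of 17 regions within 1 kb of a start site of the listed genes themselves, 7 were lower. Without the first 0 h library 8 of 41 regions were lower and without the second 10 of 42, and scaling by mean coverage left 2 of 40. Near this list 4 regions were gained, at Bcl11a, Ramp1, Gins2 and Hs3st3b1, with 11 to 20 fragments, and 0 were lost, which is 4.71% gained of 85 regions against 3.45% of all merged regions.

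At Serpinf1, a secreted serpin gene, the promoter region held 209 and 174 fragments at 0 h and 94 and 82 at 30 min (log2 change −0.99 ± 0.13). Near Dntt, which adds nucleotides at V(D)J junctions, one region held 96 and 89 and then 44 and 41, and another 118 and 96 and then 67 and 53. At the promoter of Gfra2, a co-receptor for neurturin, the counts were 177 and 157 and then 95 and 78. These regions were low in both 30 min libraries. Igll1 and Vpreb1, the surrogate light chain of the pre-B receptor, shared one region with 316 and 259 fragments at 0 h and 238 and 155 at 30 min (log2 change −0.44 ± 0.12). Its first 30 min library lay close to its second 0 h library. Regions near Itga5, Endod1, Plekho2, Hs3st3b1, Lrrfip1 and Ccnb1 (cyclin B1) were also lower. At Myc, the cell growth regulator, the nearest region held 116 and 112 and then 94 and 74 fragments, a log2 change of −0.32 that missed the threshold (limma adjusted p = 0.172).

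Adhesion genes had 7 lower of 32 kept regions (21.9%, against 6.16% of all kept regions) and 0 higher (against 1.98%), with 4 of 13 genes involved. Without the first 0 h library 4 of 33 were lower, and scaling by mean coverage left 1 of 32. At the promoter of Itga4, the alpha subunit of VLA-4, fragments went from 153 and 140 to 71 and 74. Near Itgal, the alpha subunit of LFA-1, one region went from 73 and 93 to 42 and 33. At Nedd9, a docking protein of focal adhesions, the promoter region went from 126 and 117 to 64 and 60, and 2 further regions within 20 kb fell. At Pxn, paxillin, it went from 177 and 172 to 143 and 102. All 4 genes act in integrin attachment. Near Itga6, 2 regions were gained, and near Itgal 1 was lost, which is 3.23% gained and 1.61% lost of 62 regions, near the 3.45% and 0.992% of all merged regions.

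B-lineage transcription factor genes had 5 lower and 1 higher of 65 kept regions (7.69% lower), close to the 6.16% over all kept regions, and 11 gained of 156 regions (7.05%, against 3.45% of all merged regions). At Irf4, which drives light chain rearrangement, the promoter region went from 52 and 40 fragments to 25 and 18. At Bach2, a repressor, it went from 178 and 157 to 119 and 86, and at Lef1 from 151 and 137 to 114 and 79. Near Ikzf1 itself a region 4.1 kb from a start site went from 141 and 105 to 71 and 58 (log2 change −0.79 ± 0.15), and near Fli1 one went from 110 and 95 to 62 and 50. At Foxo1, an activator of Rag genes, the promoter region rose from 83 and 71 to 113 and 85 (log2 change 0.49 ± 0.15). The 11 gained regions lay near Irf8, Runx1 and Myb (2 each), Gfi1, Zeb2, Ets1, Fli1 and Pou2af1, with 12 to 33 fragments in each 30 min library.

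The other lists moved little or in both directions. Among pre-B receptor signalling genes 2 of 52 kept regions were lower, at Vpreb2 (60 and 73 to 39 and 33 fragments) and at Ptpn6, the phosphatase SHP-1 (142 and 127 to 82 and 74), and 1 was higher, near Cd79b. These 3.85% and 1.92% lay at or under the 6.16% and 1.98% of all kept regions. Gained regions lay near Plcg2 and Pik3ap1, with 2 at the latter, and at the promoter of Arhgef1, 8.9 kb from Cd79a. They were 4.30% of 93 regions, against 3.45% of all merged regions. Of 22 regions of the IL-7 and STAT5 list 0 were called by limma on fragments or at an unadjusted p under 0.05 on the fold, and regions were gained near Il7r and Stat5b, 3.85% of 52. Immediate early genes had 2 lower regions of 40, near Egr3 and Atf3, and 1 higher, at the phosphatase gene Dusp1, which went from 77 and 72 to 126 and 81. These 5% and 2.5% were near the shares over all kept regions. One gained region, 1.89% of 53, lay 15.9 kb from Egr1 and nearer to Reep2.

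Cell cycle genes had 3 lower and 0 higher of 38 kept regions (7.89% lower, near the 6.16% of all kept regions), 2 near Cdk6, a kinase of G1, and 1 that lay 16.8 kb from Rb1 and nearer to Lpar6. The larger Cdk6 region went from 225 and 200 to 126 and 106 fragments. Gained regions lay near Cdk6, Cdkn1a and Cdkn1b, 4.55% of 66 regions against 3.45% of all merged regions. Sterol and lipid genes had 3 higher and 2 lower of 36 (8.33% and 5.56%, against 1.98% and 6.16% of all kept regions). Higher were the promoters of Hmgcs1, an early enzyme of cholesterol synthesis (60 and 72 to 113 and 73), and of Srebf1, a regulator of lipid genes (78 and 94 to 137 and 92), and a region at the promoter of Wdr37, 12.9 kb from Idi1. The fold of that region was 26.8 and 22.4 at 0 h and 19.3 and 24.1 at 30 min, a log2 change of −0.21, so its scales moved in opposite directions. At Hmgcs1 and Srebf1 the second 30 min library lay within 2 fragments of the second 0 h library in raw counts. Lower were regions at Scd1 and near Insig1. Regions gained near the list, among them ones at Lss and Srebf1, were 5.97% of 67, and 1 was lost near Insig1.

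NuRD subunit genes had 4 lower and 2 higher of 35 kept regions (11.4% and 5.71%, against 6.16% and 1.98% of all kept regions). Its difference from the other kept regions in percent lower was below 0 under 2 of the 14 alternatives. Lower were the promoters of Gatad2a (67 and 45 to 29 and 23 fragments) and Mta3 (97 and 90 to 61 and 47), a second Gatad2a region and a region 19.5 kb from Hdac1 that lay nearer to Fam229a. Higher were the promoters of Chd3 (106 and 109 to 140 and 121) and Mbd2 (43 and 36 to 64 and 53). Regions near Mta1 and Mta3 were gained, 3.64% of 55 regions and thus near the 3.45% of all merged regions. No region at Chd4 itself passed the threshold.

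Regions that were lower at 30 min and called in every later list had similar values at the later times. Of the 1035, 859 were called in all 8 H3K27ac lists, and in these the median log2 change from 0 h was −0.69 at 30 min, −0.73 at 1 h and −0.66 at 2 h. Of the 859, 853 were below 0 at 1 h and 845 at 2 h. The other lower regions lacked a peak in a later list and do not enter these medians. Those near Plxnb1, Sox9, Rpl3 and Asic4 are among them. Of the 333 higher regions, 325 were in all 8 lists, with medians of 0.58, 0.51 and 0.52. All 3 changes share the 0 h libraries, which also chose the regions, so they are set side by side without a test. Library depth differed, with median fragments over kept regions of 63 and 47 at 1 h and 46 and 47 at 2 h.

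In 1 limma fit of log2 fragments over the 14939 regions called in all 8 lists, 583 were lower and 124 higher at 30 min, 1141 and 1233 at 1 h, and 1220 and 1950 at 2 h. In the fold the same fit called 0 in either direction at 30 min (unadjusted 821 lower and 580 higher), 28 lower and 9 higher at 1 h, and 33 and 37 at 2 h. At 30 min lower calls outnumbered higher calls, and at 1 h and 2 h higher calls outnumbered lower ones in fragments. Regions without a peak in every list do not enter these counts. The fit held 859 of the 1035 lower regions and 325 of the 333 higher ones. Near Plxnb1 fragments were 25 in the 1 h list that held a peak and 18 and 22 at 2 h. Near Akap6 they were 43 and 41 at 1 h and 40 and 29 at 2 h, so both regions stayed on the side of 0 h that they had reached by 30 min.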

How the data were processed

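Chromatin immunoprecipitation for H3K27ac, HA-Ikaros and CHD4 was sequenced in B3 cells. Per the labels the authors aligned reads to mm10 with Bowtie2 2.4.2, handled duplicates with Picard 2.23.7 and called peaks with MACS2 2.2.7.1. Peak calling at 30 min, which the study's methods leave out, and the input paired with each library are not given in the sources used here. The deposited lists give for each peak a fold enrichment (a ratio of fragments over the summit to the local background, each plus a pseudocount), and the −log10 of its p-value and q-value as the authors computed them. The score column was not used.

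Fragments over each summit were recovered from the fold and the p, which MACS2 derives from the same fragments and background under a Poisson model. For peaks with −log10 p under 40, from 63.9% to 68.4% had a single solution, but only 16.8% in the first 30 min library. Of these single solutions at least 99.99% lay within 0.05 of a whole number. For other peaks the solution nearest to a whole number was taken, so wholeness is no check there. On 4 simulated lists at least 99.9% of fragments were recovered exactly. From 3 to 5 peaks per list gave no value, and 16792 of 16795 kept regions had fragments in all 4 libraries.

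Peaks of the 4 lists were merged where they overlapped by at least 1 bp, and the peak of highest fold represented a region in each library. Genes came from GENCODE M21 on GRCm38, and a region was named by the protein-coding gene with the nearest start site, or in the gene lists by the list gene within 20 kb, which is not always the nearest. A promoter region lay within 1 kb of a start site. Libraries were centred on the median of the kept regions and tested with limma 3.58.1 (empirical Bayes with trend, two-sided, Benjamini-Hochberg over all kept regions). A table of 16792 regions was simulated with Poisson fragments around the observed means, a small added spread and 200 changed regions. In it limma called 70% of 2-fold falls, 96% of 4-fold falls and 0.0121% of unchanged regions. The simulation held no difference in local background or enrichment between libraries, so it gives no rate of false calls for these data. Intervals and tests cover these libraries only, and fragments over a summit limit the precision.

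Named regions were the 8 gained and the 8 lost of highest mean rank, the 8 falls and 8 rises of smallest p in the fold, the largest changes past the threshold in fragments, and list genes with a gained, lost or called region within 20 kb. Some regions that these rules name are not reported here. The members and gene lists were chosen with earlier results of these data known. Alternatives were other thresholds, list lengths, merging distances, scalings and promoter distances, the replicate number as a block, and leaving out each library. The replicate numbers were not treated as pairs, since replicate differences at 0 h and 30 min correlated across regions with r = 0.02 in log2 fold and 0.06 in log2 fragments.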

Additional observations from a re-analysis of the deposited data

How the results depend on the processing

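Of the region counts, the gained count was 638 and the lost count 486 with lists of equal size, and 578 were gained when peaks up to 1000 bp apart were stitched. Leaving out 1 library gave 1375 to 7649 gained and 400 to 1668 lost, since 1 list fewer is then required, and without the second 0 h library lost regions (1668) outnumbered gained ones (1375). Dividing by replicate number gave 917 and 62. A promoter distance of 3 kb raised the promoter share to 65.9% of kept, 37.2% of gained and 31.5% of lost regions.

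The limma test on the fold called 0 regions in either direction under every alternative except no centring (2 lower) and fragments in place of the fold (1035 lower and 333 higher). With a replicate block the fold still gave 0 and 0, and the fragments, an alternative chosen after seeing the data like all others of the fragment fit, gave 1253 lower and 522 higher. There were only 2 pairs, and the labels do not say whether a number marks libraries made together, although the first replicate had the longer list at all 4 times. In fragments the lower and higher counts were 186 and 9 with each library divided by its mean coverage, 627 and 169 for regions with 1 peak in each library, 596 and 178 where the background was under 1.5 times the mean, 583 and 124 in the fit of all 8 libraries, and from 509 to 1311 and from 128 to 369 without 1 library. The cause of these shifts was not tested.

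The rank difference between HA-Ikaros and other regions was −1.58 within 10 bins and −6.70 to −1.89 without 1 library. The difference in percent lower was 9.08 points with the replicate block, 0.12 with mean coverage (1.16% against 1.04%), 9.29 at low background, 5.95 with all 8 libraries and 3.46 to 6.77 without 1 library. It was above 0 in all 14 alternatives, as were the differences between distal and promoter regions (1.69 to 9.26), between HA-Ikaros 0 h in both lists and neither (2.57 to 15.4), and between CHD4 0 h in both and neither (2.89 to 22.1). For CHD4 at 30 min it ranged from −0.0815, with mean coverage, to 9.63. Relative to the other kept regions, the Fast Repressed list (3.90 to 40.5) and the adhesion list (2.02 to 20.7) stayed above 0 and IL-7 and STAT5 genes below 0, while the other 6 lists changed sign under at least 1 alternative. Of the values of named regions in fragments 287 kept their call and 5 lost it, and a region not tested under an alternative gave no value. These regions were chosen for large changes in the same data, so this is no measure of how the other calls hold.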
